A study of Mus musculus with 5 samples.

Results

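Pericytes and vascular mural cells of the mouse ovary were examined in 5 single-cell RNA-seq libraries of dissociated ovaries, and 594 of the 48163 deposited cells met the rule that defines them. A cell was taken as a mural cell when it had at least 500 detected genes, a share of mitochondrially encoded (mt-) transcripts under 15%, at least 1 unique molecular identifier (UMI, one captured transcript) each of Rgs5 and Ndufa4l2, at least 1 UMI of 1 or more of Ebf1, Notch3 and Higd1b, at most 4 UMIs of Inha, and 0 UMIs of Cdh5, Ptprc and Cyp17a1. The members were thus chosen by measured UMI counts of these 9 genes, and the levels of those genes are given only as a description. The libraries were made from untreated C57BL6/J mice at 2, 3, 4, 5 and 6 wk of age, with 1 library per age, so that no age has a replicate. Whole ovaries were dissociated with 0.25% trypsin at 37°C, and the sources used here do not say how many mice were pooled for a library. All ages shared the strain, the absence of treatment and the 3′ v3.1 droplet chemistry, in which a UMI reports the 3′ end of a transcript and not its length. The deposited UMIs totalled 124938004, 93438618, 117666094, 107071492 and 144609431 at 2 to 6 wk, over 9471, 9253, 11077, 7779 and 10583 cells. Counting was done with Cell Ranger 3.1.0 for 2, 3 and 4 wk and with Cell Ranger 6.0.1 for 5 and 6 wk, so the software version and the age cannot be told apart across that step.

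Mural cells lie on the outer face of the blood endothelium. Pericytes share the basement membrane of capillaries and small venules and are held there by PDGF-B from the endothelium acting on PDGF receptor beta, whereas vascular smooth muscle cells form the contractile layer of arterioles, arteries and larger veins. Notch3 signalling, ATP-sensitive potassium channels and receptors for vasoactive hormones are established features of the lineage, and in the ovary these cells coat the vessels that grow into the theca of each developing follicle.

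The members came from every library, with 86, 85, 87, 145 and 191 cells at 2 to 6 wk, median depths of 9234, 5984, 5683, 7840 and 8310 UMIs per cell and 936530, 604942, 544806, 1308256 and 1898857 UMIs in all. The 3 and 4 wk members were the shallowest, so low levels at those ages rest on the fewest counts. Scrublet, a doublet caller, marked 1, 0, 2, 1 and 3 of them as doublets, and these 7 cells were kept. Pairs of libraries shared 18 to 35 cell barcodes, and no member barcode occurred in more than 1 library.

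The values that chose the members spread widely. Rgs5, a regulator of G-protein signalling (chr1:169655501-169695813 on the plus strand, GRCm38), had a median of 20 UMIs per member, and medians of 20, 11, 11, 27 and 30 at 2 to 6 wk. Ndufa4l2, a paralogue of the respiratory chain subunit Ndufa4 (chr10:127514967-127517154 on the plus strand), had a median of 7. Among the 594 cells, 578 had a UMI of Ebf1, an early B-cell factor that also acts in mural cells (chr11:44617317-45008091 on the plus strand), 547 of the Notch receptor gene Notch3 (chr17:32120820-32166852 on the minus strand) and 389 of Higd1b, a small mitochondrial membrane protein of the hypoxia-inducible domain family (chr11:102835849-102838040 on the plus strand). All 3 genes were detected in 348 members, 2 of them in 224 and 1 in 22. Just inside the limits were 19 members with 1 UMI of Rgs5, 49 with 1 UMI of Ndufa4l2 and 5 with exactly 4 UMIs of Inha, the inhibin alpha subunit gene of granulosa cells. Just outside, 66 cells were lost to Inha alone, 5 of them at 5 UMIs, 14 to Cdh5, 2 to Ptprc, 7 to Cyp17a1, 6 to the lack of all 3 lineage genes, 85 to the lack of Ndufa4l2 and 230 to the lack of Rgs5. The cells lost for want of Rgs5 numbered 53, 41, 62, 33 and 41 at 2 to 6 wk, so that at 2, 3 and 4 wk, where the median of Rgs5 in members was lowest, they were more in relation to the members than at 5 and 6 wk.

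Members made up 0.908% of the deposited cells at 2 wk (95% exact Clopper-Pearson interval 0.727 to 1.12), 0.919% at 3 wk (0.734 to 1.13), 0.785% at 4 wk (0.630 to 0.968), 1.86% at 5 wk (1.58 to 2.19) and 1.80% at 6 wk (1.56 to 2.08). The intervals cover counting error only, and with 1 library per age no test of age was made. The 3 younger libraries lay close together and the 2 older ones were about 2 times higher, with no overlap of the intervals between these sets. Of the cells that passed the limits on detected genes and mt- share, 1.07, 1.05, 0.915, 2.09 and 2.06% were members. The ratio of mural cells to blood endothelial cells, as defined below, was 1.69, 4.25, 2.18, 0.890 and 2.05, which followed no order of age: it was highest at 3 wk, where 20 endothelial cells were found (interval 2.59 to 7.31), and lowest at 5 wk, where 163 were found (0.706 to 1.12).

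**Figure D1:**
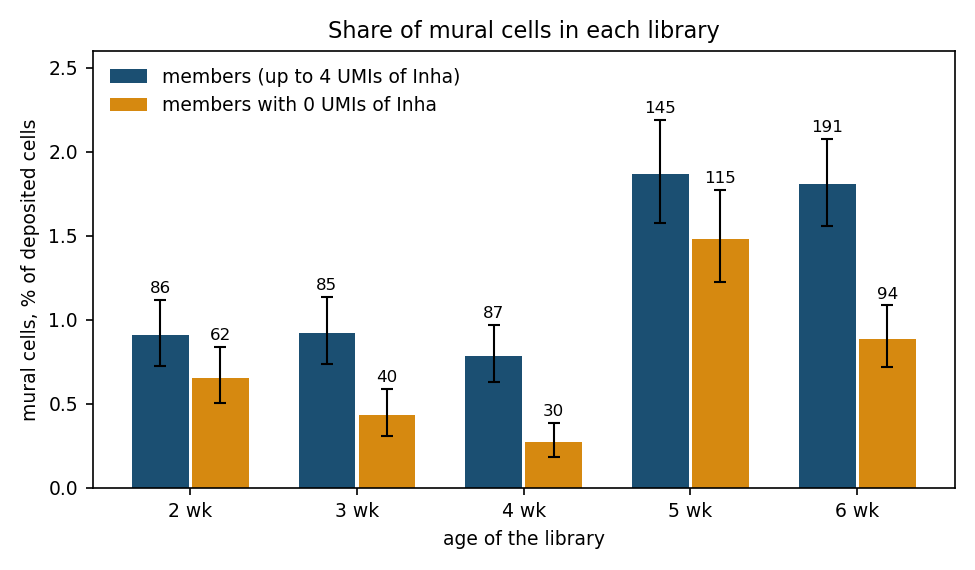
Share of mural cells among the deposited cells of each library (vertical axis, percent) against age (horizontal axis, weeks), for all members and for members with 0 UMIs of Inha; bars are single libraries, whiskers are exact 95% binomial intervals for counting error and the number above a bar is its count of members. Members were 0.908, 0.919 and 0.785% at 2, 3 and 4 wk and 1.86 and 1.80% at 5 and 6 wk.

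The limit on Inha bore on this pattern. Of the members, 341 had 0 UMIs of Inha, namely 62, 40, 30, 115 and 94 at 2 to 6 wk, and these made up 0.655, 0.432, 0.271, 1.48 and 0.888% of the deposited cells. As among all members, the 5 wk library was highest and the 4 wk library lowest. The interval at 6 wk (0.718 to 1.09%) now overlapped that at 2 wk (0.502 to 0.838%). The stricter limit removed a larger part of the 6 wk members than of the 5 wk members. A list of 10 granulosa genes summed in members to 562, 326, 312, 152 and 197 CPM (the UMIs of a gene in a cell group, scaled to a common total of 1000000 UMIs in each library), with Serpine2 its most abundant gene. Serpine2 was also higher in mural cells than in endothelium, and the other 9 genes summed to 111, 129, 149, 113 and 141 CPM. The share of members with 1 to 4 UMIs of Inha was 27.9, 52.9, 65.5, 20.7 and 50.8%. Whether free granulosa RNA set the number of members was not tested.

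The lineage label was compared with markers of mural cells and of the other cell types that an ovary holds. From the same libraries, 3 other groups of cells were used for comparison. Blood endothelial cells (51, 20, 40, 163 and 93 at 2 to 6 wk) had at least 1 UMI each of Cdh5, Pecam1 and Flt1. Contractile smooth muscle cells (436, 426, 464, 533 and 588) had Myh11, Actg2 and Cnn1, the last 2 being genes of a smooth muscle type that also occurs outside vessels. Fibroblast stroma (1208, 713, 780, 794 and 1303 cells) had Dcn, Lum and Pdgfra and 0 UMIs of Myh11. Cells with both Rgs5 and Ndufa4l2 were kept out of all 3 groups. For each gene, UMIs were summed per library and cell group, and the 5 mural sums were compared with the 5 sums of another group by edgeR's quasi-likelihood test with the library as a block. A gene was called at a Benjamini-Hochberg adjusted p under 0.05 and a difference of at least 2-fold. Because the cells were gated on a few genes, such a test shows only whether a difference recurred over the 5 libraries. The 3 comparisons share the mural sums.

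Against blood endothelium, 937 of 8039 tested genes were called higher in mural cells (11.7% of the genes tested) and 876 lower (10.9%). Against contractile smooth muscle, 1126 of 10676 were higher (10.5%) and 905 lower (8.48%). Against fibroblast stroma, 1044 of 11330 were higher (9.21%) and 908 lower (8.01%). The median log2 fold change over all tested genes was 0.02, -0.0005 and -0.01. These shares and medians are the background for every gene group described here. Genes used to define either group of a comparison were left out of it.

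Pericyte genes were higher in mural cells in each comparison. Of a list of 28 pericyte genes, 21 of the 24 tested were higher than in endothelium, with a median log2 fold change of 5.82, 18 of 24 were higher than in contractile smooth muscle (median 3.92) and 23 of 25 were higher than in fibroblast stroma (median 3.17). None was lower. The exceptions against endothelium were Mcam, Art3 and Nrp1. Of a list of 22 vascular smooth muscle genes, 19 of 21 were higher than in endothelium (median 4.44) and 20 of 21 were higher than in stroma (median 3.69), while against contractile smooth muscle 7 of 19 were higher and 9 were lower (median -0.69). Stroma was gated on the absence of Myh11 and smooth muscle on its presence. Genes that vary with Myh11 are thus shifted by the gates, to an extent that was not measured. Summed over the pericyte list, mural cells held 5891, 5478, 6367, 6415 and 6316 CPM at 2 to 6 wk, and the 5 libraries lay within a narrow range. Summed over the vascular smooth muscle list they held 18824, 21142, 19668, 10762 and 11901 CPM, with the 5 and 6 wk libraries below the other 3.

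Some markers of other cell types were at 0 in members, but most genes of their lists were not, and the summed levels ranged widely. The endothelial gene Tie1, the lymphatic gene Mmrn1, the leukocyte genes Tyrobp and Coro1a, the glial genes Sox10 and Cdh19, the oocyte genes Dazl and Zp2 and the erythroid gene Alas2 had 0 UMIs in the 594 cells. Members had a UMI of 11 of 12 blood endothelial, 5 of 6 lymphatic and 6 of 8 hematopoietic genes. The same held for 3 of 5 glial, 3 of 5 oocyte and 4 of 5 red blood cell genes. Sox10 and Cdh19 were also at 0 in smooth muscle and stroma, and Mmrn1 and Alas2 in endothelium, so these zeros do not set members apart there. The hematopoietic list of 8 genes summed to 18.2, 8.27, 18.4, 22.2 and 19.5 CPM. The lymphatic list of 6 genes summed to 28.8, 21.5, 16.5, 13.8 and 4.74 CPM. The blood endothelial list of 12 genes summed to 404, 469, 538, 403 and 444 CPM, with Esam its most abundant gene, and all 10 of its tested genes were lower than in endothelium (median -5.02). Against contractile smooth muscle and stroma, however, Esam, Cd93 and Tek were higher in mural cells, as was Emcn against smooth muscle. The junctional adhesion gene Esam stood at 174, 213, 288, 184 and 231 CPM in mural cells and at 631, 583, 882, 699 and 933 CPM in endothelium. Every mural library was below every endothelial library, and its log2 fold change over stroma was 7.44 (SE 0.15, adjusted p = 5.71e-12).

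The fibroblast stroma list of 10 genes summed to 5699, 2323, 2116, 2139 and 2124 CPM in mural cells, with the 2 wk library well above the other 4 and Col1a2 the most abundant gene. All 7 tested genes of this list were lower than in stroma (median -1.62) and 6 of 10 were lower than in contractile smooth muscle, while against endothelium 7 of 9 were higher (median 1.33) and none lower, which became 4 of 7 higher and Dcn lower without the members with 5 or more UMIs of Dcn. A few cells carried much of the 2 wk signal: 9 of the 86 members at that age had 5 or more UMIs of the proteoglycan gene Dcn, 2 of them held 474 of 614 Dcn UMIs (77.2%), and the 9 held 573 of 762 UMIs of the collagen gene Col1a1 (75.2%). At 3 to 6 wk, 2, 4, 10 and 7 members had 5 or more Dcn UMIs. Of the granulosa list, Gja1 and Nr5a2 were lower and Serpine2 and Foxl2 higher than in endothelium, with the call of Foxl2 lost without the 5 wk or the 6 wk library (1.03 and 1.26) or without the members with 5 or more Dcn UMIs (1.22) and that of Nr5a2 without the 6 wk library (-0.997). Foxl2 and Gja1 were lower than in contractile smooth muscle and stroma, at log2 fold changes of -1.73 and -2.35 for Foxl2, and Bex4 was lower than in smooth muscle (-1.20). The theca list of 8 genes summed to 28.8, 29.8, 51.4, 94.8 and 25.8 CPM, with Star its most abundant gene, and the surface epithelium list of 6 genes to 38.4, 3.31, 12.8, 6.88 and 57.4 CPM, with Lgals7 its most abundant. Lists for theca, surface epithelium, oocyte and red blood cells had no member called in any comparison, with at most 2 genes tested. The glial gene S100b was lower than in stroma. Of the lymphatic list, Flt4 was lower than in endothelium, Lyve1 was lower than in smooth muscle and Prox1 was higher than in stroma, at a mural level of 2.63 to 14.9 CPM, a call lost without the 2 wk library (0.92).

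**Figure D2:**
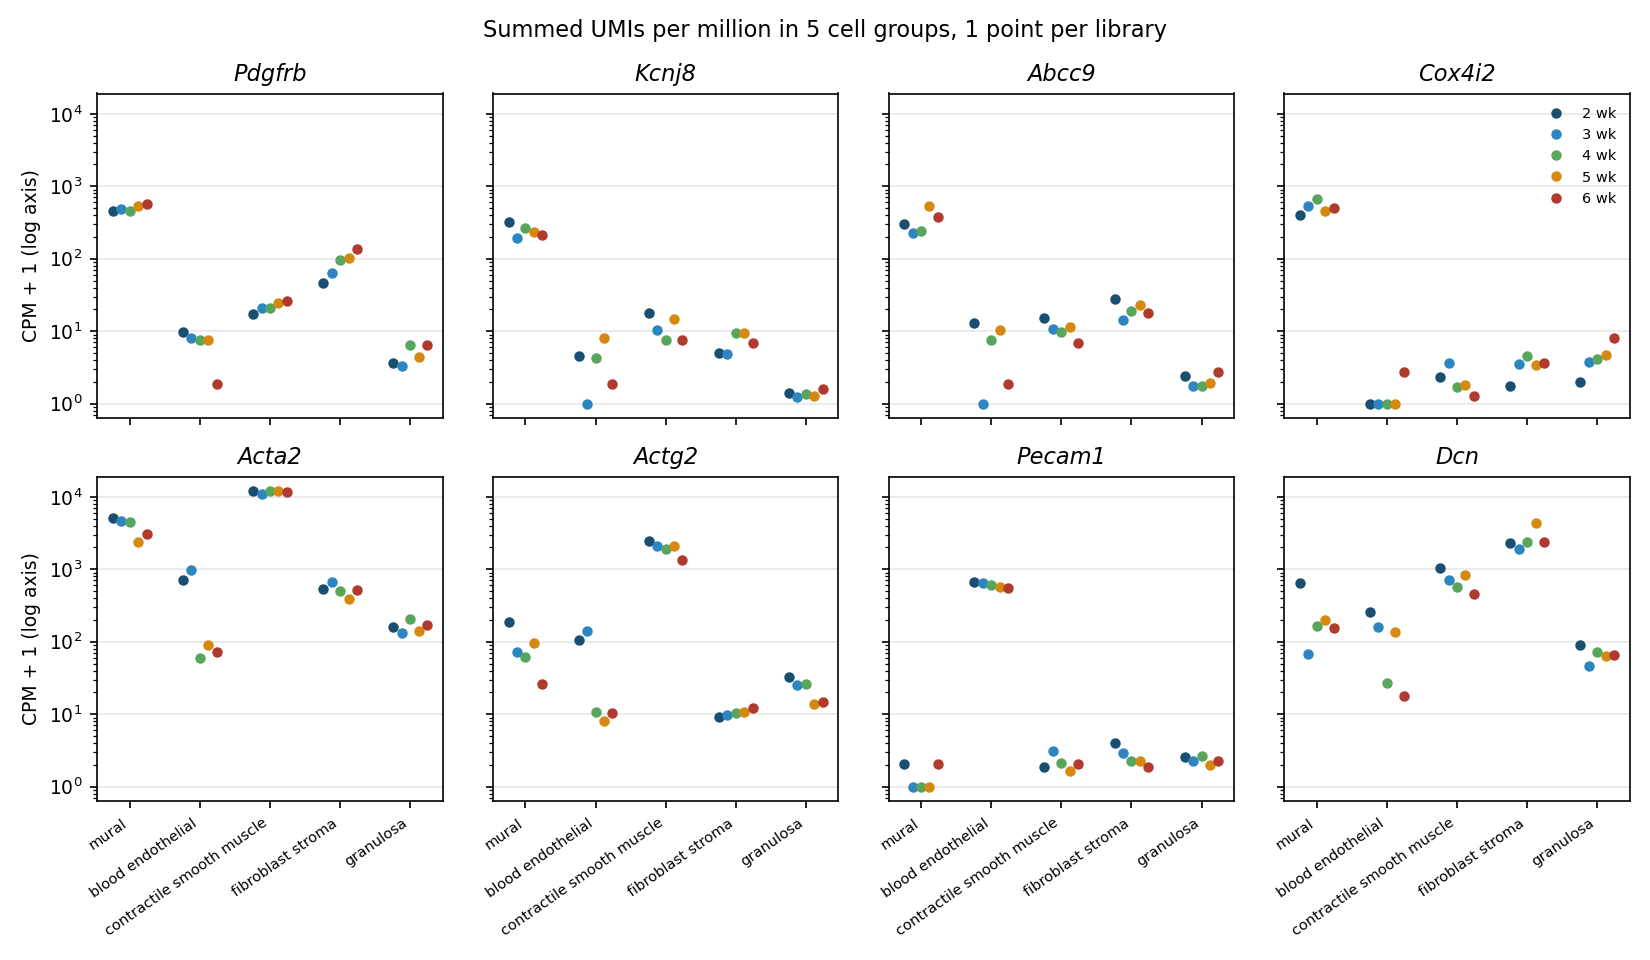
Level of lineage, channel and contractile genes (vertical axis, CPM + 1, log axis) in mural cells, blood endothelium, contractile smooth muscle, fibroblast stroma and granulosa cells (horizontal axis), 1 point per library. Pdgfrb lay between 453 and 576 CPM in the 5 mural sums, above every sum of the other groups, while Acta2 was higher in contractile smooth muscle than in mural cells in every library.

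The genes that set mural cells apart from all 3 groups were ranked by the smallest of their 3 log2 fold changes. The first was Olfr558, an odorant-type G-protein-coupled receptor (chr7:102702215-102712064 on the plus strand), at 119, 137, 149, 165 and 240.1 CPM in mural cells at 2 to 6 wk. Not 1 UMI was found in the endothelial cells, so that the mural level was at least 292-fold higher than the floor of 3 UMIs over that group, and the log2 fold change was 7.82 (SE 0.33, adjusted p = 4.27e-08) over contractile smooth muscle and 10.34 (SE 0.23, adjusted p = 1.36e-11) over stroma. Every mural library lay above every library of the other groups. The second was Cox4i2 (chr2:152754173-152765037 on the plus strand), the hypoxia-responsive isoform of cytochrome c oxidase subunit 4, at 404, 536, 661, 453 and 503 CPM. It had 2 UMIs in endothelium, a ratio of 1206 with a counting interval of 333 to 9962, and its log2 fold change was 8.72 (SE 0.26, adjusted p = 7.26e-09) over contractile smooth muscle and 7.71 (SE 0.16, adjusted p = 1.23e-11) over stroma.

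Parm1, which encodes a mucin-like membrane protein, stood at 91.8, 142, 147, 85.6 and 93.2 CPM and exceeded contractile smooth muscle by a log2 fold change of 5.45 (SE 0.26, adjusted p = 1.04e-07) and stroma by 6.37 (SE 0.26, adjusted p = 1.84e-09). Hrc, a calcium-binding protein of the sarcoplasmic reticulum, stood at 60.9, 86.0, 97.3, 62.7 and 51.6 CPM, with log2 fold changes of 6.09 and 5.98 in the same comparisons. Membrane carriers were among these genes as well. Slc38a11, of an amino acid transporter family, stood at 29.9, 57.9, 55.1, 84.1 and 111 CPM and had 0 UMIs in endothelium, so that the mural level was at least 127-fold higher than the floor of 3 UMIs there. Slc16a12, of the monocarboxylate transporter family, stood at 17.1, 23.1, 27.5, 35.9 and 29.5 CPM, and endothelium, smooth muscle and stroma held 2, 1 and 3 UMIs of it. The ratio to smooth muscle was 779 with a counting interval of 138 to 30957, and that to stroma was 465 (156 to 2278).

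Other genes of this set were Tbx3os1, Gpr20, Sgip1, Cpm, Serpini1, Arvcf, Map7d2 and Cabp1. Tbx3os1 (chr5:119570130-119671365 on the minus strand) is an antisense transcript of the transcription factor gene Tbx3, and its value rests on counting by strand, which the sources used here do not describe. It stood at 129, 132, 149, 134 and 78.5 CPM in mural cells, against 0.660 to 1.76 CPM in contractile smooth muscle and 0.953 to 1.89 CPM in stroma, with no overlap. Gpr20, an orphan receptor, stood at 24.6, 33.1, 34.9, 17.6 and 41.1 CPM and had 0 UMIs in endothelium, the mural level being at least 50.2-fold higher than the same floor. Carboxypeptidase M, encoded by Cpm, was at 28.8, 33.1, 25.7, 45.9 and 26.9 UMIs on the same scale, Serpini1, the protease inhibitor neuroserpin, at 99.3, 124, 228, 245 and 247, and Sgip1, an endocytic adaptor, at 31.0, 67.8, 67.9, 75.7 and 82.7. Arvcf, a catenin of the p120 family, Map7d2, a microtubule-associated protein, and Cabp1, a calcium-binding protein, had log2 fold changes over contractile smooth muscle of 5.36, 5.15 and 5.87. Each gene named from this set was higher in mural cells in 5 of 5 libraries in all 3 comparisons.

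By the same ranking, 6 genes were named as lower in mural cells than in all 3 groups. Wt1, the Wilms tumour transcription factor of the gonadal mesenchyme, stood at 31.0, 3.31, 3.67, 5.35 and 5.79 CPM in mural cells, against 164, 139, 108, 74.1 and 55.3 CPM in contractile smooth muscle and 179, 131, 97.7, 94.2 and 84.6 CPM in stroma. The highest mural library, at 2 wk, was still below each library of those groups, and the log2 fold changes were -3.53 (SE 0.28, adjusted p = 3.48e-06) and -3.66 (SE 0.24, adjusted p = 1.19e-07). Gja1, the gap junction protein connexin 43, stood at 27.8, 31.4, 29.4, 25.2 and 29.5 CPM in mural cells with little spread over age, and its log2 fold change was -2.92 (SE 0.21, adjusted p = 6.17e-07) against endothelium, -3.19 (SE 0.11, adjusted p = 1.69e-08) against smooth muscle and -2.91 (SE 0.15, adjusted p = 1.66e-08) against stroma. Cd34, a sialomucin of endothelium and stroma, lay at 0 to 56.6 CPM in mural cells, with log2 fold changes of -5.88, -2.55 and -3.67. The atypical cadherin gene Dchs1, the adherens junction gene Afdn and the glycosyltransferase gene Galnt15 were the other 3.

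**Figure D3:**
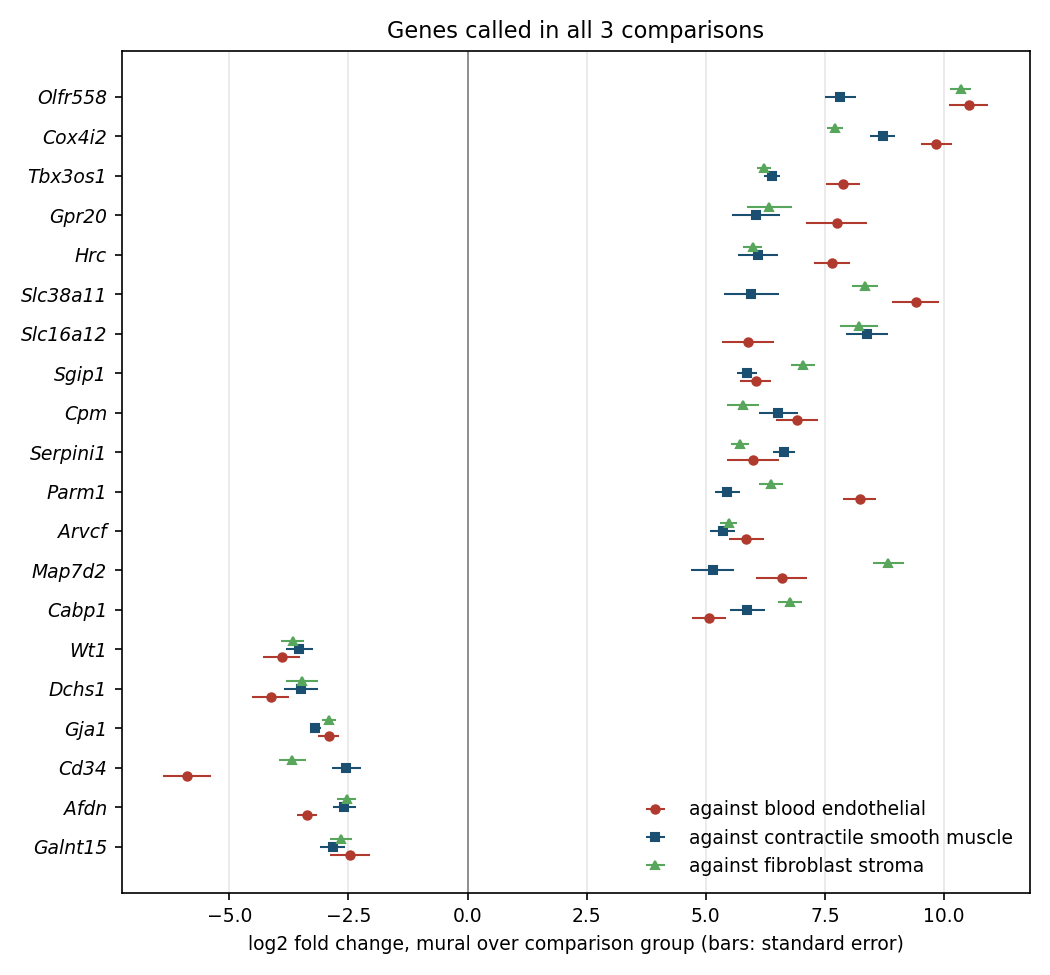
Log2 fold change of mural cells over each of the 3 comparison groups (horizontal axis) for the named genes higher or lower in mural cells than in all of them (vertical axis), from edgeR over 5 libraries, with bars of 1 standard error. Olfr558 and Cox4i2 lay above 7 in every comparison and Gja1 lay near -3 in every comparison.

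Signals that recruit mural cells were split between ligand and receptor. Pdgfrb, the receptor that pericytes need to attach to vessels, stood at 453, 488, 455, 534 and 576 CPM in mural cells and at 8.70, 6.94, 6.53, 6.68 and 0.855 CPM in endothelium, a log2 fold change of 6.62 (SE 0.27, adjusted p = 1.02e-08). Mural cells exceeded contractile smooth muscle by 4.42 (SE 0.10, adjusted p = 3.36e-09) and stroma by 2.49 (SE 0.15, adjusted p = 6.19e-08), with no overlap in either case. Its ligand gene Pdgfb showed the opposite order, at 13.9, 4.96, 3.67, 6.12 and 17.4 CPM in mural cells against 104, 111, 111, 201 and 295 CPM in endothelium, a log2 fold change of -4.09 (SE 0.26, adjusted p = 2.04e-07). Yet Pdgfb was also higher in mural cells than in contractile smooth muscle (3.54) and stroma (4.51). Pdgfa was higher than in endothelium and stroma, Pdgfc was lower than in smooth muscle, and the receptor gene Pdgfra was lower than in smooth muscle. In the list of 6 PDGF genes, 2 of 3, 2 of 6 and 3 of 5 tested genes were higher in the 3 comparisons, and 1, 2 and 0 were lower.

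In the Notch pathway the ligand genes Jag2 and Dll4 and the receptor gene Notch4 lay on the endothelial side, with log2 fold changes of -6.36, -5.11 and -3.90, as did the target gene Hey1 (-1.99), whereas the targets Heyl, Hey2 and Nrarp and the receptor gene Notch2 were higher in mural cells and Hes1 was not called. Heyl, a transcriptional repressor induced by Notch, stood at 219, 235, 176, 201 and 264 CPM in mural cells against 5.22, 0, 3.27, 3.71 and 4.28 CPM in endothelium, a log2 fold change of 5.82 (SE 0.21, adjusted p = 3.23e-09). It exceeded contractile smooth muscle by 3.71 (SE 0.19, adjusted p = 1.43e-07) and stroma by 1.92 (SE 0.18, adjusted p = 2.92e-06). Nrarp, a Notch-induced inhibitor of the pathway, stood at 199, 114, 108, 201 and 265 CPM in mural cells and at 103, 13.9, 58.8, 60.1 and 111 CPM in endothelium. These overlapped across ages, with the mural value higher within each of the 5 libraries, and the log2 fold change was 1.41 (SE 0.18, adjusted p = 6.63e-05) over endothelium, 6.76 (SE 0.42, adjusted p = 5.35e-07) over smooth muscle and 8.58 (SE 0.24, adjusted p = 7.61e-11) over stroma. Of 13 Notch pathway genes, 7 of the 10 tested were higher in mural cells than in contractile smooth muscle (median 2.98) and 7 of 10 were higher than in stroma (median 2.27), with none lower. Hey1 and Hey2 were among them in both. Against endothelium 4 of 12 were higher and 4 were lower. Notch2, Hes1 and Rbpj passed the test in neither of the mesenchymal comparisons.

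Angpt2, the angiopoietin that loosens vessels by competing for the endothelial receptor Tek, stood at 52.3, 36.4, 75.3, 73.4 and 108 CPM in mural cells. It was higher than in endothelium (2.99, SE 0.33, adjusted p = 1.58e-05), contractile smooth muscle (2.73, SE 0.14, adjusted p = 1.91e-07) and stroma (2.59, SE 0.21, adjusted p = 8.3e-07). Angpt1, the ligand that activates Tek, was higher than in endothelium (2.29) but passed the test in neither of the other comparisons. Tek itself was lower than in endothelium (-4.10) and higher than in smooth muscle (3.69) and stroma (1.55). The VEGF receptor gene Kdr and the ligand gene Vegfc were lower than in endothelium, and Vegfa and Vegfc were lower than in stroma. Over the 11 genes of this list, 2 of 10 tested were higher and 5 lower against endothelium, 3 of 8 higher and 1 lower against smooth muscle, and 3 of 9 higher and 3 lower against stroma. The gene lower than in smooth muscle was Vegfb, a call lost without the 2 or the 5 wk library (-0.97 and -0.99). Of the TGF-beta and BMP pathway, the ligand gene Tgfb3 was higher than in endothelium (4.43), and the endothelial receptors Eng and Acvrl1 were lower (-3.18 and -2.71), while 9 of 13 genes against smooth muscle and 10 of 14 against stroma did not pass the test. The BMP target Id3 was higher than in smooth muscle (1.70) and stroma (1.19).

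Several channels that set membrane potential and calcium entry were higher in mural cells than in the other groups. The ATP-sensitive potassium channel of pericytes is built from a pore subunit and a sulfonylurea receptor, whose genes lie side by side on chromosome 6. Kcnj8, the pore (chr6:142564837-142571614 on the minus strand), stood at 319, 190.1, 266, 232 and 214 CPM in mural cells at 2 to 6 wk against 16.8, 9.38, 6.67, 13.8 and 6.47 CPM in contractile smooth muscle and 3.99, 3.81, 8.47, 8.46 and 5.88 CPM in stroma. Abcc9, the regulatory subunit (chr6:142587862-142702315 on the minus strand), stood at 303, 225, 240.5, 537 and 375 CPM against 14.2, 9.64, 8.73, 10.6 and 5.94 and 27.1, 13.3, 17.7, 22.3 and 16.9 CPM. Neither gene overlapped between mural cells and the other groups. The log2 fold changes of Kcnj8 were 5.83 (SE 0.28, adjusted p = 2.69e-08) over endothelium, 4.39 (SE 0.17, adjusted p = 2.6e-08) over smooth muscle and 5.26 (SE 0.19, adjusted p = 5.95e-10) over stroma, and those of Abcc9 were 5.98 (SE 0.31, adjusted p = 4.35e-08), 4.94 (SE 0.22, adjusted p = 6.59e-08) and 4.00 (SE 0.16, adjusted p = 1.56e-09). Ano1, a calcium-activated chloride channel that depolarises contractile mural cells, stood at 179, 131, 119, 225 and 245 CPM and was higher by 4.34 (SE 0.32, adjusted p = 1.91e-06) over smooth muscle and 4.90 (SE 0.27, adjusted p = 2.73e-08) over stroma. Trpc6, a cation channel opened by diacylglycerol, was higher by 5.02 and 4.90, and Kcne4, an accessory potassium channel subunit, was higher than in endothelium by 7.29. By contrast Kcnma1 and Kcnmb1, which form the large-conductance calcium-activated potassium channel of smooth muscle, were lower in mural cells than in contractile smooth muscle (-2.44 and -1.22). Of 14 channel genes, 9 of 12, 6 of 13 and 10 of 14 were higher in the 3 comparisons, with medians of 5.49, 0.99 and 3.72, and 0, 2 and 0 were lower.

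Receptors for vasoactive ligands, and the enzymes of cyclic nucleotide signalling behind them, were mostly on the mural side. Of the 29 genes listed, 12 of 16 were higher than in endothelium (median 3.92), 15 of 20 were higher than in contractile smooth muscle (median 3.04) and 18 of 21 were higher than in stroma (median 3.04), and 2, 3 and 3 were lower, with 1 lower than in smooth muscle without the 6 wk library. Agtr1a, the type 1 receptor for angiotensin II, stood at 91.8, 38.0, 34.9, 20.6 and 23.2 CPM in mural cells and exceeded smooth muscle by 5.21 (SE 0.40, adjusted p = 2.8e-06) and stroma by 4.72 (SE 0.41, adjusted p = 1.28e-06). S1pr3, a receptor for sphingosine 1-phosphate, stood at 238, 284, 380.0, 311 and 206 CPM, and its log2 fold change was 4.98 (SE 0.37, adjusted p = 1.97e-06) and 5.28 (SE 0.19, adjusted p = 6.73e-10). P2ry14, a receptor for UDP-sugars, was higher by 5.08 and 3.13, and Adora2b, an adenosine receptor, by 5.65 over smooth muscle. Rgs4, a brake on G-protein signalling like Rgs5, stood at 273, 249.6, 391, 312 and 308 CPM and differed from stroma by 7.78 (SE 0.29, adjusted p = 7.54e-10) and from smooth muscle by 6.56 (SE 0.40, adjusted p = 5.09e-07). Downstream, the cyclic nucleotide phosphodiesterase gene Pde3a was higher than in endothelium (7.05) and the cyclic GMP-dependent kinase gene Prkg1 was higher than in stroma (4.34). Npr1, the natriuretic peptide receptor, was lower than in all 3 groups (-3.37, -1.65 and -3.15). The endothelin receptor gene Ednrb was lower than in contractile smooth muscle (-1.78, SE 0.62, adjusted p = 0.043), a call lost without the 3, 4, 5 or 6 wk library (-1.13 to -2.13), was higher than in stroma (3.96), was not called against endothelium and varied strongly with age, as described below.

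Contractile genes separated mural cells from contractile smooth muscle in both directions. Acta2, smooth muscle actin, stood at 5096, 4615, 4536, 2345 and 3073 CPM in mural cells and at 11841, 11040.1, 11849, 11913 and 11719.5 CPM in contractile smooth muscle, lower in mural cells in each library, with a log2 fold change of -1.79 (SE 0.15, adjusted p = 5.76e-06). Tagln, Lmod1, Myl9, Tpm2, Mylk, Smtn, Myocd and Synpo2 were also lower, with the call of Myl9 lost without the 5 or the 6 wk library (-0.83 and -0.89). The vascular genes Rergl, Map3k7cl and Sncg were higher. Rergl, a small Ras-like GTPase gene of arterial smooth muscle, stood at 73.7, 72.7, 73.4, 16.8 and 16.9 CPM against 5.66, 3.39, 0.230, 9.28 and 0 CPM, a log2 fold change of 3.61 (SE 0.65, adjusted p = 0.00123), and had 0 UMIs in stroma, where the mural level was at least 649.8-fold higher than the floor of 3 UMIs. Map3k7cl, a kinase-like gene of unsettled function, stood at 75.8, 114, 88.1, 81.8 and 52.7 CPM and was higher by 3.64 (SE 0.32, adjusted p = 6.56e-06).

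Genes of matrix proteins were called in both directions. Col4a1, which encodes a chain of the basement membrane collagen that pericytes and endothelium share, stood at 2504, 2761, 2722, 2521 and 2425 CPM in mural cells and at 1188, 1810.4, 2055, 1545 and 1505 CPM in endothelium, and the difference did not pass the call (0.76, SE 0.09, adjusted p = 3.08e-05). It was higher than in contractile smooth muscle (2.54, SE 0.09, adjusted p = 1.59e-08) and stroma (1.76, SE 0.12, adjusted p = 1.72e-07), as was Col4a2 (2.48 and 1.80). Col18a1, another basement membrane collagen, was higher than in smooth muscle and stroma by 3.93 and 4.06 and was lower than in endothelium (-1.50). The alternative chains Col4a3 and Col4a4, the nidogen gene Nid2 and the perlecan gene Hspg2 were lower than in both mesenchymal groups, with the call of Col4a3 against stroma lost without the 5 wk library (-0.97). Of 18 basement membrane genes, 4 of 17, 9 of 18 and 7 of 18 were higher, and 3, 4 and 4 were lower. Of 16 genes of fibrillar and interstitial matrix, 14 were higher than in endothelium (median 2.05), or 9 of 15 without the members with 5 or more UMIs of Dcn, 2 of 16 were higher and 4 were lower than in smooth muscle, and 1 of 14 was higher and 5 were lower than in stroma. The single gene on the mural side against stroma was Postn, the matrix protein periostin, with a log2 fold change of 3.17 (SE 0.24, adjusted p = 4.01e-07). The fibrillar collagen gene Col1a1 was lower than in smooth muscle (-2.36, SE 0.28, adjusted p = 5.5e-05) and stroma (-3.08, SE 0.25, adjusted p = 7.56e-07).

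Connexin genes were called in both directions. Gja4, connexin 37, stood at 398, 299, 380.0, 308 and 503 CPM in mural cells, against 344, 159.5, 271, 87.9 and 130.0 CPM in endothelium and 0 to 5.32 CPM in contractile smooth muscle. It was higher by 1.17 (SE 0.24, adjusted p = 0.00187) over endothelium, 6.85 (SE 0.46, adjusted p = 9.52e-07) over smooth muscle and 10.49 (SE 0.20, adjusted p = 4.15e-12) over stroma, whereas Gja1 was lower than in all 3 groups, as given above. The mural and endothelial libraries overlapped for Gja4, although mural cells were higher in 5 of 5 libraries, and the call was lost without the 5 or the 6 wk library (0.95 and 0.93). Itga7, a laminin-binding integrin subunit of muscle, was higher by 4.21 over smooth muscle and 5.82 over stroma, and Itga4, the subunit of the VCAM1 receptor, by 5.54 and 4.64. Thy1 was higher than in endothelium (6.20) and smooth muscle (4.94). Mcam, an adhesion molecule used to mark pericytes, was higher than in stroma (5.86) and was called against neither endothelium nor smooth muscle. Over 16 adhesion genes, 9 of 15, 7 of 16 and 11 of 16 were higher and 4, 2 and 2 were lower.

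Of the mitochondrial paralogues outside the rule, Cox4i2 was called higher and Ndufa4 lower. Cox4i2 was among the genes highest in mural cells, as given above, while its ubiquitous counterpart Cox4i1 passed the call in no comparison, at 1007, 1278, 1167, 998 and 1099 CPM in mural cells. Ndufa4, the ubiquitous paralogue of the rule gene Ndufa4l2, stood at 180.5, 127, 110.1, 86.4 and 136 CPM in mural cells, against 558, 361, 349.6, 484 and 691 CPM in endothelium, 716, 397, 330.0, 587 and 579.9 CPM in smooth muscle and 345, 224, 195, 287 and 409 CPM in stroma. Its log2 fold change was -1.91 (SE 0.17, adjusted p = 2.69e-06), -2.20 (SE 0.15, adjusted p = 1.03e-06) and -1.31 (SE 0.13, adjusted p = 5.5e-06), so that it was lower in mural cells in each comparison. The 2 paralogues could share reads only where their 3′ ends are alike, which was not examined. Higd1a and Higd2a, paralogues of the rule gene Higd1b, passed the call in no comparison. Epas1, the hypoxia-inducible factor 2 alpha of endothelium and mural cells, stood at 238, 258, 336, 359 and 305 CPM and was higher than in smooth muscle (4.03, SE 0.23, adjusted p = 3.41e-07) and stroma (3.56, SE 0.23, adjusted p = 8.87e-08) but not than in endothelium (-0.64, SE 0.13, adjusted p = 0.00221). Over this whole list of 15 genes, 8 of 11, 9 of 13 and 8 of 13 tested genes were not called, the glycolytic enzymes Ldha and Pgk1 among them in each comparison. The glucose transporter gene Slc2a1 was lower than in endothelium, the mitophagy receptor gene Bnip3 was lower than in smooth muscle and stroma, and Vegfa was lower than in stroma.

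Among 26 transcription factor genes, 14 of 20 were higher than in endothelium (median 2.31), 8 of 20 were higher than in contractile smooth muscle and 9 of 20 were higher than in stroma, and 2, 3 and 3 were lower, with 5 lower than in smooth muscle without the 6 wk library. The forkhead genes Foxc1 and Foxc2, which act in mural cell development, were among them. The call of Foxc1 against endothelium was lost without the 3 or the 4 wk library (0.94 and 0.86). It was also lost with 0 UMIs of Inha (0.95), with stricter cell limits (0.98) and without Scrublet doublets (0.98). Foxc2 stood at 76.9, 31.4, 34.9, 36.7 and 26.3 CPM in mural cells, and the log2 fold change was 5.72 (SE 0.33, adjusted p = 3.05e-07) over smooth muscle and 5.39 (SE 0.24, adjusted p = 4.12e-09) over stroma. Foxc1 stood at 106, 84.3, 75.3, 101 and 62.7 CPM, with log2 fold changes of 5.12 and 4.13. The T-box gene Tbx2 was higher than in endothelium (4.36) and smooth muscle (3.72), Prrx1, a mesenchymal homeobox gene, was higher than in endothelium (5.21), and Mef2c, a myogenic factor, was higher than in stroma (3.41). Lhx9 and Wt1, factors of the gonadal mesenchyme, were lower than in both mesenchymal groups.

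Chemokine genes differed in both directions. Ccl11, the eosinophil chemokine eotaxin, stood at 39.5, 64.5, 56.9, 58.1 and 23.7 CPM in mural cells and had 0 UMIs in endothelium, where the mural level was at least 70.2-fold higher than the floor of 3 UMIs, with a log2 fold change over stroma of 3.29 (SE 0.50, adjusted p = 0.000174). Il34, a ligand of the macrophage receptor CSF1R, stood at 54.5, 61.2, 56.9, 28.3 and 49.5 CPM and was higher by 5.70 (SE 0.31, adjusted p = 2.04e-07) over smooth muscle and 4.62 (SE 0.25, adjusted p = 2.23e-08) over stroma. Ccl2, which attracts monocytes, stood at 20.3, 9.92, 60.6, 299.6 and 30.5 CPM, with the 5 wk library far above the other 4, and its log2 fold change over stroma was 2.68 with that library and 2.63 without it, and 3.44 without the 6 wk library. Cxcl14 was lower than in smooth muscle (-4.94) and stroma (-3.54), and Cxcl12 was lower than in endothelium (-2.82). Of 14 genes, 3 of 8, 7 of 10 and 5 of 11 were higher, and 2, 1 and 3 were lower, with 1 lower than in stroma without the 5 wk library.

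Steroid receptor genes were called in both directions. Esr1, estrogen receptor alpha, stood at 17.1, 14.9, 18.4, 19.1 and 15.8 CPM and was higher than in endothelium by 2.09 (SE 0.41, adjusted p = 0.00152). Esr2, estrogen receptor beta, was lower than in smooth muscle (-3.20) and stroma (-3.37), and Esr1, Pgr and Nr3c1 were called in neither of the mesenchymal comparisons. Cell cycle genes were higher than in contractile smooth muscle in 7 of 15 cases (median 0.93; 11 without the 2 wk and 4 without the 6 wk library), Mcm3 and Mki67 among them, whereas 0 of 15 were higher than in endothelium, where Birc5 was lower, and 0 of 15 were called against stroma. Members with 5 or more UMIs over 8 mitotic genes numbered 6, 7, 1, 7 and 15 at 2 to 6 wk, or 6.98, 8.24, 1.15, 4.83 and 7.85% of the members. The 4 wk share was the lowest, and its interval (0.0291 to 6.24%) overlapped those of the other ages. These mitotic counts were taken at full depth, and the 4 wk members were the shallowest (median 5683 UMIs). Immediate-early and heat shock genes, which tissue dissociation can induce, showed no call in favour of mural cells over smooth muscle or stroma. Of 14 such genes, 4 were higher than in endothelium (Hspa1a, Btg2, Jun and Junb, at log2 fold changes of 1.03 to 1.33, with the calls of Jun and Junb lost without the 6 wk library, at 0.96 each, that of Jun without 3 wk, at 0.995, and that of Junb without 4 wk, at 0.98), 3 were lower than in smooth muscle and Fosb was lower than in stroma (-1.33).

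Members were not alike in their contractile genes. Each cell was thinned to 3000 UMIs to remove the effect of depth, which left out 16 shallower members (0, 6, 3, 3 and 4 at 2 to 6 wk), and the UMIs of Acta2, Tagln, Myl9, Tpm2 and Myh11 were summed. This contractile sum had a median of 8 per 3000 UMIs over the 578 cells and ran from 0 to 260. It was under 10 in 299 cells (51.7%) and 100 or more in 56 (9.69%). By age, the median was 11.5, 22, 18, 4.5 and 5, the share of cells under 10 was 44.2, 36.7, 41.7, 64.1 and 56.7%, and the share at 100 or more was 15.1, 16.5, 15.5, 4.23 and 5.88%. The 5 and 6 wk libraries thus held relatively more cells with a low sum than the 2, 3 and 4 wk libraries. Acta2 alone was found in 72.1, 69.6, 67.9, 52.1 and 57.8% of the thinned members, and in 83.7, 75.3, 71.3, 60.0 and 66.0% of the members at full depth. Its share in thinned granulosa cells, which should lack it, was 11.7%, and in thinned hematopoietic cells 15.1%, at median full depths of 7454 UMIs for mural, 15864.5 for granulosa and 7667 for hematopoietic cells. Myh11, the smooth muscle myosin heavy chain, was found in 62.8, 72.2, 76.2, 65.5 and 58.8% of the thinned members, against 2.61% of granulosa and 3.42% of hematopoietic cells. These background shares were pooled over the 5 libraries. The mural shares of both genes were above the pooled background at every age, and no background by age is given here. The hematopoietic background was uneven, since the vascular smooth muscle list summed there to 366 CPM at 3 wk and 3585 CPM at 4 wk. Actg2 and Cnn1, by contrast, were found in 7.44 and 5.02% of the thinned members and in 89.9 and 79.5% of the thinned contractile smooth muscle cells, which had been selected on them.

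Genes that varied with the contractile sum fell into 2 sets. Correlations were taken over the 578 cells on a log scale after centring each library, for 1894 genes with at least 150 thinned UMIs, and are given as a description, since all values of a cell share its 3000 UMIs. Leaving out the 5 genes of the sum and the genes of the rule, 1884 genes remained, of which 75 reached a coefficient of at least 0.3 and 52 one of -0.3 or less, and 1017 were below 0 (median -0.01). Named after their values were seen, the positive set held Myl6, the smooth muscle and non-muscle myosin light chain (r = 0.74), Crip1 (0.74), Mustn1 (0.71), the tropomyosin gene Tpm1 (0.65), the actin nucleator gene Lmod1 (0.60) and the myosin kinase gene Mylk (0.55). The negative set held the globin gene Cygb (-0.64), Col4a1 (-0.57), Abcc9 (-0.56), the lectin gene Colec11 (-0.53), Steap4 (-0.43), Pdgfrb (-0.41) and Kcnj8 (-0.40). The 2 sets were not confined to contractile and pericyte genes. Several mt- genes were in the positive set, such as mt-Atp6 (0.43), mt-Co1 (0.39) and mt-Co3 (0.38). Mndal (-0.44), Ifi203 (-0.44) and Ifitm3 (-0.41) were in the negative set. For Myl6 the coefficient within single libraries was 0.73, 0.77, 0.79, 0.73 and 0.72, and for Abcc9 it was -0.51, -0.55, -0.62, -0.59 and -0.54. These genes were named for their coefficients, and the lists they come from were not uniform. Of 22 pericyte genes with enough UMIs, 18 had a coefficient below 0 (median -0.14), beside 1017 of 1884 over all genes, 12 were below 0 in each of the 5 libraries (54.5%, against 19.3% of all genes) and 5 reached -0.3, while Des, the intermediate filament gene desmin of muscle cells, was positive (0.42) and Vtn (-0.04) and Rgs4 (-0.07) were near 0. Of 11 basement membrane genes, 9 were below 0 (median -0.28) and 7 in each library (63.6%, beside the same 19.3%), while the laminin gene Lamb2 was positive (0.32). Stromal genes also lay on that side: 12 of 14 fibrillar and interstitial matrix genes were below 0 (median -0.22), 10 of them in each library (71.4%), as were 4 of 5 fibroblast stroma genes (median -0.18), 3 of them in each library. Summed over the whole pericyte list, of which 26 genes were in the files, the median was 24 UMIs per 3000 in the 299 cells with a contractile sum under 10 and 14 in the 56 cells with a sum of 100 or more. The same medians were 21.5 and 13 at 2 wk, 25 and 12 at 3 wk, 25 and 14 at 4 wk, 24 and 13.5 at 5 wk and 24 and 15 at 6 wk. No border between the ends of this range was drawn.

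**Figure D4:**
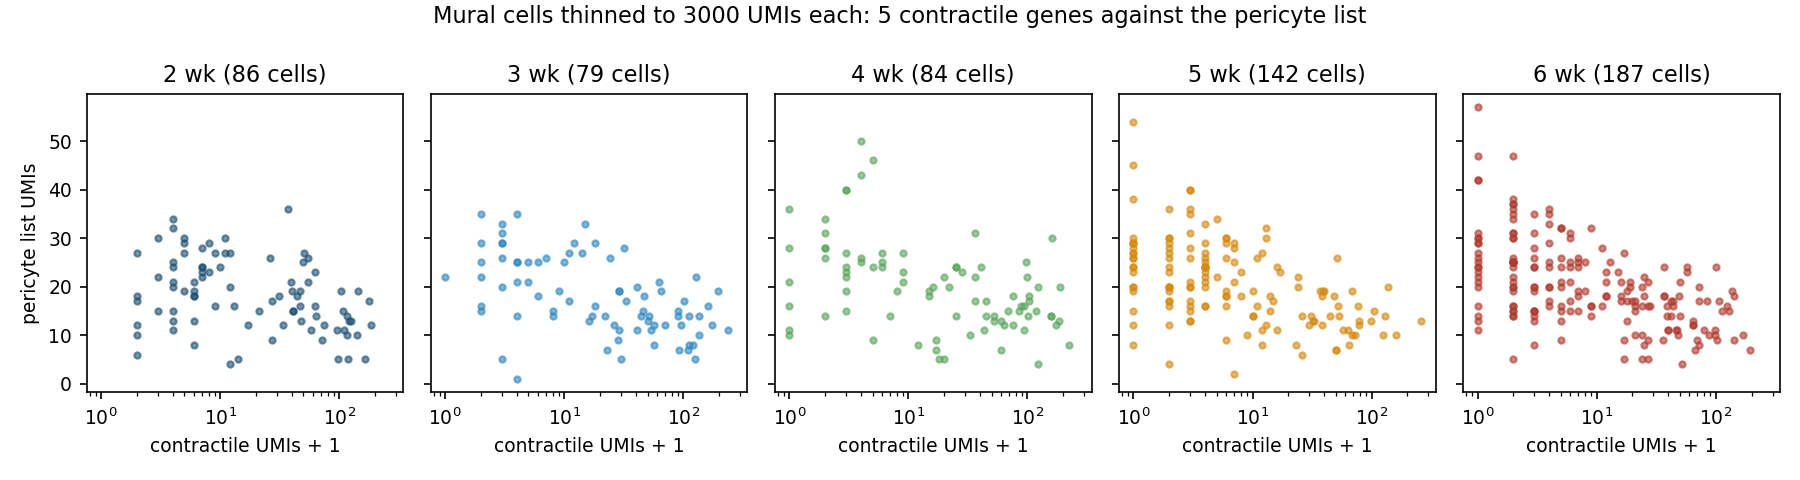
Contractile sum (Acta2, Tagln, Myl9, Tpm2 and Myh11, horizontal axis, UMIs per 3000 plus 1, log axis) against the sum over the pericyte list (vertical axis, UMIs per 3000), 1 point per thinned mural cell, 1 panel per library from 2 to 6 wk. Cells with a contractile sum of 100 or more, which were 13, 13, 13, 6 and 11 of the members, had at most 30 pericyte list UMIs, and cells with a low contractile sum spread widely.

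The promoters of the contractile genes were searched for the CArG box, the site bound by serum response factor, which drives smooth muscle genes, because contractile genes varied widely among members. The motif searched was CC, 6 bases that are each A or T, then GG, which reads the same on both strands. In RefSeq promoter windows of 300 bases (250 before to 50 after the gene start, GRCm38.p6), it was found in 2 of the 17 vascular smooth muscle genes that had a window (11.8%) in 1 of 18 pericyte genes, Trpc6 (5.56%), in 0 of 10 Notch genes and in 488 of 27025 promoters (1.81%). The smooth muscle matches are shown with 10 bases on either side and the motif in capitals. The stretch shown for the first lies at chr6:139501939-139501968 on the minus strand, with its motif starting 49 bases before the RefSeq start of Rergl, and that for the second at chr2:156775293-156775322 on the plus strand, with its motif starting 161 bases before the RefSeq start of Myl9. The GENCODE gene models, from which the gene coordinates here are taken, start Rergl farther upstream, so that by them its match lies within the gene, and start Myl9 nearer to its match.
Rergl: acaaggacagCCATAAAAGGcactttcaaa
Myl9: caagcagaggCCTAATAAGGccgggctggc
A match is a description of the letters and not evidence of binding. For the Notch list, GTGGGAA, the core of the RBPJ site, was found on either strand in the window of 1 of 10 genes, Hey2, in 1 of 18 pericyte genes, Gucy1a1, in 0 of 17 vascular smooth muscle genes and in 7.25% of all promoters.

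With 1 library per age, levels by age are given as CPM with counting intervals and no test, beside the same ratio in all other cells that passed the limits. Of 4017 genes with at least 200 UMIs over the members, 128 were at least 2-fold higher at 6 wk than at 2 wk (3.19%) and 110 were at least 2-fold lower (2.74%), and the median ratio was 0.9997. At each step from 2 to 6 wk the level was higher than at the step before for 62 genes and lower for 39. From these the 6 with the largest ratio in each direction were taken, with ribosomal and mt- genes left out.

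Among genes higher at each step, the largest ratio was that of Ifi27l2a, an interferon-induced gene, at 22.4, 49.6, 257, 446 and 719 CPM, a 6 wk over 2 wk ratio of 32.1 (20.9 to 52.0). The same ratio was 11.6 in all other cells and 32.4 in fibroblast stroma, so a higher level at 6 wk was found in other cells too. Htr1b, the serotonin receptor 1B of vascular smooth muscle (chr9:81628291-81633828 on the minus strand), stood at 4.27, 24.8, 42.2, 48.2 and 64.8 CPM, a ratio of 15.2 (5.78 to 56.5), against 0.761 in the other cells. It was found in 1.16, 11.4, 14.3, 15.5 and 13.9% of thinned members, and in 4.65, 11.8, 18.4, 26.2 and 31.9% of the members at full depth. Of thinned granulosa cells 0.212% had a UMI of it, and of 292 thinned hematopoietic cells 0 did. This limits only the share with a UMI at that depth (up to 1.03%), not the share of cells expressing the gene. Wnt6, a secreted Wnt ligand (chr1:74771892-74785322 on the plus strand), stood at 19.2, 29.8, 60.6, 65.7 and 92.2 CPM, a ratio of 4.80 (2.95 to 8.28), while the ratio in the other cells was 0.275. Actr3b, a subunit of the actin-nucleating Arp2/3 complex, stood at 22.4, 28.1, 106, 135 and 182 CPM, a ratio of 8.10 (5.22 to 13.3), against 2.14 in the other cells. Its ratio was 4.46 in contractile smooth muscle, 2.76 in stroma and 0.430 in endothelium. For these last 3 genes the interval of the mural ratio lay wholly above the ratio of the other cells. Txnip, a thioredoxin inhibitor, had a ratio of 4.44 against 4.32 in the other cells, and Serpinb6b, a protease inhibitor, 4.03 against 3.39.

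Among the genes lower at each step, Ednrb, the endothelin receptor type B (chr14:103814625-103844402 on the minus strand), stood at 292, 141, 91.8, 40.5 and 13.7 CPM, a ratio of 0.0470 (0.0301 to 0.0703), whereas the ratio was 1.53 in all other cells and 1.90 in contractile smooth muscle. It was found in 43.0, 17.7, 14.3, 6.34 and 2.67% of thinned members, against 0.699% of granulosa and 4.79% of hematopoietic cells pooled over the ages. The 5 and 6 wk shares thus lay near the pooled hematopoietic level. At full depth Ednrb was found in 57.0, 32.9, 19.5, 9.66 and 6.28% of the members. Cnn1, the actin-binding protein calponin 1, stood at 82.2, 62.8, 45.9, 39.0 and 7.90 CPM, a ratio of 0.0961 (0.0513 to 0.168) against 0.552 in the other cells. Its ratio was 0.0197 in endothelium, 0.495 in contractile smooth muscle and 0.438 in stroma. Without the members with 5 or more UMIs of Dcn, Cnn1 stood at 50.3, 63.7, 47.4, 9.50 and 4.48 CPM and was no longer lower at each step, and the stepwise order was also lost for Txnip, Serpinb6b, Col1a1 and Sdc4, while the direction from 2 to 6 wk was kept by all 12 genes. Gas1, a membrane co-receptor for hedgehog, had a ratio of 0.164 (0.132 to 0.204) against 0.393, and Sdc4, a cell surface proteoglycan, 0.234 (0.168 to 0.323) against 0.473. Postn had a ratio of 0.192 (0.155 to 0.237) against 0.0526, so the 6 wk level was a smaller part of the 2 wk level in the other cells as a whole.

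The fibrillar collagen genes Col1a1 and Col3a1 were lower at 6 wk than at 2 wk, by an amount that depended on the few Dcn-carrying members. Col1a1 stood at 814, 301, 159.7, 113 and 104 CPM, a ratio of 0.128 (0.109 to 0.150), with 0.437 in the other cells. Its ratio was 0.0671 in endothelium, 0.514 in contractile smooth muscle and 0.430 in stroma. Without the members with 5 or more Dcn UMIs, a limit chosen after seeing the data, Col1a1 stood at 249.99, 262, 128, 85.5 and 80.6 CPM, a ratio of 0.322. Col3a1 stood at a ratio of 0.341 with these members and 0.774 without them. Other collagen genes did not follow as a group: Col4a1 had a ratio of 0.968 with and 0.988 without them, and Col6a1 one of 0.550 with and 1.23 without them. Of the 16 genes of fibrillar and interstitial matrix, 9 were at least 2-fold lower at 6 wk and 0 were at least 2-fold higher, with a median ratio of 0.483. Without the Dcn-carrying members this was 3 of 14, with 1 higher and a median ratio of 0.855, so the count for this list rested largely on those cells. In the vascular smooth muscle list 4 of 16 were at least 2-fold lower and 1 higher (median 0.674), or 3 of 15 and 0 without those members (median 0.600), and in the pericyte list 1 of 24 was lower and 3 were higher (median 1.11), with the same counts without them (median 1.06). The elastin gene Eln stood at 928, 301, 321, 43.6 and 59.5 CPM, a ratio of 0.0641 with and 0.0574 without the Dcn-carrying members, and Actg2 had a ratio of 0.131. Since Cnn1, Actg2 and Ednrb are also genes of the contractile smooth muscle group, fewer cells of that kind among the members and a lower level per cell cannot be told apart in these sums.

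**Figure D5:**
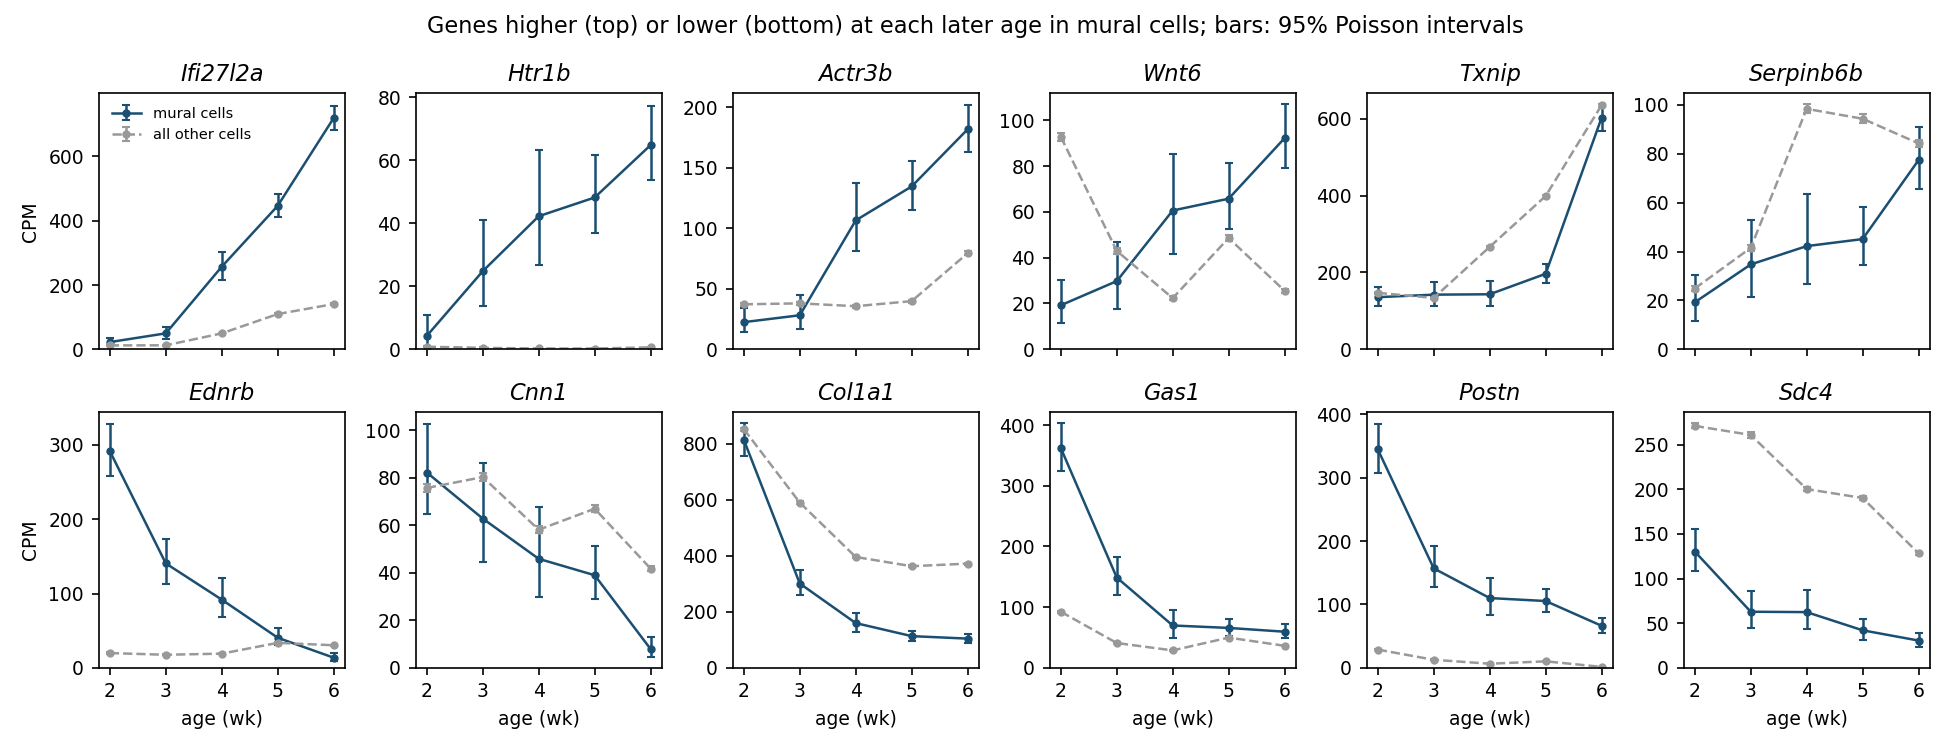
Level (vertical axis, CPM, from 0) against age (horizontal axis, weeks) of the named genes that were higher or lower at each later age in mural cells (solid) and their level in all other cells (dashed), 1 panel per gene, with exact 95% Poisson intervals for counting error and 1 library per age. Htr1b went from 4.27 to 64.8 CPM and Ednrb from 291.5 to 13.7 CPM between 2 and 6 wk.

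Chosen after their values were seen, 6 genes of the lists that were at least 2-fold higher at 6 wk than at 2 wk over all members are given as well. Angpt2 had a ratio of 2.06, the VEGF-C co-receptor gene Nrp2 2.79, P2ry14 2.48, Thy1 2.17, Steap4, a metalloreductase gene of pericytes, 3.07, and Olfr558 2.03. The same ratio in all other cells was 4.69, 1.38, 2.603, 1.36, 1.94 and 2.27, so that for Angpt2, P2ry14 and Olfr558 it was higher there than in mural cells. Without the Dcn-carrying members Angpt2 (1.79) and Olfr558 (1.78) were below 2-fold, and the other 4 genes were above it. In the angiopoietin and VEGF list 2 of 5 genes were at least 2-fold higher (median 1.67), or 1 of 4 without those members (median 1.54), and in the Notch list 0 of 8 were past 2-fold in either direction (median 1.26). Lists of ion channels (0 of 9), TGF-beta and BMP genes (0 of 9), mitochondrial paralogues and hypoxia genes (0 of 9), PDGF genes (0 of 2) and steroid receptors (0 of 2) had no member past 2-fold. Without the Dcn-carrying members Kcne4 (2.03) and 1 other channel gene, and 1 gene each of the TGF-beta, mitochondrial and PDGF lists, were past it, Ldha (0.471) and Pdgfa (0.476) among them. Serpine2, the protease inhibitor of the granulosa list, had a ratio of 0.125, while its ratio in the other cells was 1.06. Rgs5, which chose the members, stood at 2525, 2004, 2342, 4218 and 4036 CPM, and Ndufa4l2 at 829.7, 985, 1197, 999.8 and 1096 CPM, given as a description because cells with less Rgs5 were less likely to be counted.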

How the data were processed

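The authors sequenced 3′ v3.1 libraries of live sorted ovarian cells (per the labels, 1 library per age), aligned the reads to mm10 with Cell Ranger (3.1.0 or 6.0.1) and deposited raw UMI counts per gene and cell barcode, without normalization. Per the labels the authors also used Seurat 4.1.0. No table of theirs with cell types was used here, and the groups were rebuilt from UMI rules. All groups had at least 500 detected genes and an mt- share under 15%. Blood endothelial cells also had at most 4 UMIs of Inha and 0 of Ptprc, Cyp17a1 and Prox1, and contractile smooth muscle and fibroblast stroma had at most 4 UMIs of Inha and 0 of Cdh5, Ptprc and Cyp17a1, stroma also 0 of Myh11. A cell that met the rules of 2 comparison groups was left out of both. The members, lists and tests were chosen with earlier results of these data known.

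Deposited counts were summed per library and group and fitted in edgeR 4.0.16 (limma 3.58.1, R 4.3.3) with TMM normalization, filterByExpr and the library as a block, so each comparison has n = 5 libraries and p-values measure the spread between libraries that differ in age. Levels are CPM of the summed counts. DESeq2 1.42.0, another normalization, no filter on low counts, no block, other membership rules, stricter cell limits, removal of doublets and leaving out each library were tried as alternatives. Python 3.11.15 with numpy 2.4.6, scipy 1.17.1, pandas 2.3.3, scanpy 1.11.5 (Scrublet) and matplotlib 3.10.9 did the rest. The edgeR step was tested on simulated counts.

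Genes were named by rule: up to 4 called genes of largest log2 fold change per list and comparison, the 15 genes higher and 6 lower in all 3 comparisons with at least 20 CPM, ranked by their smallest change (1 of the 15 is not reported here), and the 6 genes with the largest rise or fall over age among those with at least 200 UMIs. Other genes of the lists that are named serve the account of a pathway and were chosen after their values were seen. Median depth was 12424, 9056, 9581, 11406 and 11881 UMIs per cell at 2 to 6 wk. A count of 0 allows up to 3 expected UMIs at 95% confidence, and intervals cover counting error only. Genes of the protein paralogues are given by level alone, and their protein sequences were not used here.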

Additional observations from a re-analysis of the deposited data

Results flagged for a closer look

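Over the 5 mural sums, 29 sets of values (the summed level of each gene list, the share of members and the ratio of mural to endothelial cells) were examined for a library far from the rest, by its gap to the nearest other library as a share of the whole range. In 5 of them 1 library stood apart, and chance alone would mark about 1 in 20 such sets. The fibroblast stroma list summed to 5699 CPM at 2 wk, against 2116 to 2323 CPM at the other ages, and the fibrillar and interstitial matrix list, which holds some of the same genes, to 9829 CPM at 2 wk against 5508 to 6015 CPM. The chemokine and cytokine list summed to 1423 CPM at 5 wk, against 450.6 to 649.9 CPM. The hematopoietic list was at 8.27 CPM at 3 wk, against 18.2 to 22.2 CPM, and the red blood cell list at 10.7 CPM at 5 wk, against 0 to 2.14 CPM. Both of these lists rest on few UMIs, since the members held 604942 UMIs in all at 3 wk and 1308256 at 5 wk. The gap to the nearest library takes no account of that counting error.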

How the results depend on the processing

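The counts of genes called higher and lower moved by less than 1.5 times under every alternative but one: with no filter on low counts, 1572 genes were higher and 1423 lower than in blood endothelium, in place of 937 and 876. Without a replicate block, here the library, counts were 913 and 866 against endothelium, 1059 and 848 against contractile smooth muscle and 997 and 813 against stroma, and DESeq2 gave 932 and 863, 1097 and 886, and 1021 and 884. No paired analysis was possible because the labels carry no replicate numbers, beyond the library that both groups of a comparison share. Leaving out 1 library in turn gave 806 to 1062 higher and 748 to 1037 lower against endothelium, 1058 to 1187 and 838 to 942 against smooth muscle, and 1033 to 1050 and 859 to 920 against stroma. The genes named by rule and all called genes of the lists were refitted under every alternative. Of their log2 fold changes, 6466 kept their side of the threshold, 133 lost it and 1 reversed, that of Dcn against endothelium, at -1.94 without the members with 5 or more UMIs of Dcn, which that alternative removes by construction. Calls were lost most often without a replicate block (24) and without the 6 wk library (22), and 13 were lost with 0 UMIs of Inha, that of Kcnmb1 against smooth muscle among them. Without the block, 4 of 9 fibroblast stroma and 9 of 16 matrix genes were higher than in endothelium and 4 of 15 cell cycle genes higher than in smooth muscle. Leaving out 1 library moved the fold of 91 of 475 calls by over 1.5 times, with no change of direction, where a gene is counted once for each comparison that called it. The log2 fold change over endothelium went from 7.51 to 10.72 for Steap4 without 5 wk, from 7.45 to 9.49 for Trpc6 without 6 wk and from 9.84 to 11.74 for Cox4i2 without 6 wk.

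Members with 0 UMIs of Inha made up 0.655, 0.432, 0.271, 1.48 and 0.888% of the deposited cells at 2 to 6 wk, and with them 80 of 2387 genes, in place of 128 of 4017, were at least 2-fold higher at 6 wk. Of the 6 wk over 2 wk ratios, 178 moved by less than their counting interval, 35 moved by more and 2 reversed: Cenpf stood at 3.68 with 0 UMIs of Inha and Dcn at 1.06 with at least 2 of Ebf1, Notch3 and Higd1b, and the cause was not tested. At full depth the share of members with a UMI was 83.7% at 2 wk and 66.0% at 6 wk for Acta2, and 81.4, 84.1 and 77.5% at 2, 5 and 6 wk for Myh11, since thinning removes UMIs. With 86, 85, 87, 145 and 191 members, counting error limits genes of a few CPM, and 1 library per age leaves the spread between mice unmeasured.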

Other observations

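Colec11, which encodes a collectin of the lectin pathway of complement, was chosen after its values were seen. It was found in 23.3% of thinned mural cells at 2 wk (95% exact interval 14.8 to 33.6), 40.5% at 3 wk (29.6 to 52.1), 54.8% at 4 wk (43.5 to 65.7), 65.5% at 5 wk (57.1 to 73.3) and 62.6% at 6 wk (55.2 to 69.5), and at full depth in 38.4, 52.9, 62.1, 79.3 and 77.0%. The 2 wk interval did not overlap those of 4, 5 and 6 wk. In thinned contractile smooth muscle, granulosa and hematopoietic cells of all ages the share was 0.663, 0.410 and 0.342%. Fibroblast stroma and endothelium were not thinned, so the share there is not known. Colec11 had a coefficient of -0.53 with the contractile sum. Cells with a sum under 10 were 64.1 and 56.7% at 5 and 6 wk, against 36.7 to 44.2% at the younger ages. Whether this shift set the share of Colec11 was not tested. Cygb, the globin gene named with it, was found in 41.9, 53.2, 52.4, 59.2 and 54.0% of thinned mural cells, and these intervals overlapped. With 1 library per age neither gene was tested for age.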
